A study of Mus musculus with 12 samples.

Results

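The genes described here are 40 genes of cell proliferation and DNA replication, read in bulk mRNA profiles of mouse colon. They were chosen by symbol, as the rows of the deposited expression table whose Ensembl identifiers carry those symbols, a rule that uses no measured value, although the list of symbols was drawn up with earlier results of these data known. All 40 were found among the 54532 genes of the table, and all 40 were among the 14179 genes with enough signal to be tested. The study set a high-fat diet (HFD) against a diet labelled CD, which the labels do not spell out, each with and without 2% DSS. DSS is dextran sulfate sodium, a polymer that damages the lining of the large bowel when mice drink it. All 4 groups were colon of wild-type (WT) C57BL/6J mice, with 3 samples each, and are called HFD+DSS, CD+DSS, HFD and CD. The labels give no age, no duration of diet or DSS, and no statement that the 3 samples of a group were separate animals, so p-values measure the spread between these samples, which may be technical.

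A dividing cell first licenses its replication origins by loading a ring of MCM proteins, then copies its DNA with the sliding clamp Pcna and newly made deoxynucleotides, and then builds a spindle on which mitotic kinases, kinetochore proteins and kinesin motors part the chromosomes. Cyclins and their kinases order these steps, and each set of genes is transcribed mainly in its own window of the cycle, the replication genes under E2F factors and the mitotic genes under Foxm1 and the MuvB complex. In the colon the dividing cells lie mostly in the lower crypt, with germinal centres and activated stroma as other sources. The level of these transcripts in whole tissue is relative to all other RNA, and can follow the share of cycling cells rather than their number. In bulk tissue, fewer cycling cells and less of each RNA per cycling cell cannot be told apart.

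The members fall into 6 roles: 9 genes of origin licensing and the replicative helicase, 6 of nucleotide supply and the fork, 7 cyclins and cycle regulators, 7 mitotic kinases and checkpoint genes, 6 of chromosome structure and the kinetochore, and 5 of the spindle and cytokinesis. Levels are given as FPKM, fragments scaled by gene length and by a scaling size for each library. That size did not equal the fragments on genes. In CD+DSS replicate 2 it was about 13500000, where about 16000000 fragments fell on genes. Comparisons between libraries rest on that scaling. The mean level over the 12 libraries ran between 1.63 FPKM for Cdc6 and 45.1 FPKM for Pcna. Between 57 and 6551 fragments stood behind a member's value in a library, as recovered from the FPKM.

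To show how the replication and the mitotic members differ in the DNA beside their start sites, 4 promoter windows are printed, a pair of replication genes and a pair of mitotic genes with levels described below. Each is RefSeq sequence of GRCm38.p6, 250 bases before to 50 bases after the annotated start, 5′ to 3′ on the strand of the gene. Capitals mark matches, on either strand, to a CCAAT box (CCAAT), to E2F letters (TTTCCCGC, TTTCGCGC, TTTGCCGC or TTTGGCGC) or to the cell cycle homology region, the CHR (TTTGAA or TTCGAA).
Mcm6, chr1:128359656-128359955, minus strand: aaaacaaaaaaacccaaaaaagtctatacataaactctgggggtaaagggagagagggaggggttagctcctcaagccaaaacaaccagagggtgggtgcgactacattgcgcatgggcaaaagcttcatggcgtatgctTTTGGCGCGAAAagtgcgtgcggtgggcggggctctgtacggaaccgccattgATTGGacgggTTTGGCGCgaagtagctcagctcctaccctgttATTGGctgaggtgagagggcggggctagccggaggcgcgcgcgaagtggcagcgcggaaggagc
Cdc6, chr11:98907901-98908200, plus strand: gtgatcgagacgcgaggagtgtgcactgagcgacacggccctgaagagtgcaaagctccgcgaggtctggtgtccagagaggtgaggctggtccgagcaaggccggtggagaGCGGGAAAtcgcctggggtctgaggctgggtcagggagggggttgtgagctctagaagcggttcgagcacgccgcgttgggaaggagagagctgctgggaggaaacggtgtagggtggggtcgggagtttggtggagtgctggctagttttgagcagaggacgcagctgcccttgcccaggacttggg
Top2a, chr11:99024140-99024439, minus strand: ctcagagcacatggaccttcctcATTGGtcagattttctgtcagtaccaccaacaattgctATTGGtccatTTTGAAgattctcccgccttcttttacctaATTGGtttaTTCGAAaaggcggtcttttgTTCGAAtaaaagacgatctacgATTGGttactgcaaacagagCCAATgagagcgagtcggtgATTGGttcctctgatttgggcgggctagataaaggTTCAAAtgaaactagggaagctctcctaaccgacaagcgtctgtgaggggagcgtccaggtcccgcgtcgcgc
Mki67, chr7:135716330-135716629, minus strand: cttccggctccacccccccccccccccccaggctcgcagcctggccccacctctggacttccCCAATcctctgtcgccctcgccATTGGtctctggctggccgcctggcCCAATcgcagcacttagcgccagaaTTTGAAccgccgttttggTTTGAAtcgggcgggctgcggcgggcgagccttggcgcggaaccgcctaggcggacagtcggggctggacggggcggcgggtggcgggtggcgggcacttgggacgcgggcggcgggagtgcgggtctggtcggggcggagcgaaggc
The Mcm6 window held 2 CCAAT boxes and 3 E2F matches, of which 1 pair overlapped, and the Cdc6 window held 1 E2F match. The Top2a window held 6 CCAAT boxes and 4 CHR matches, and the Mki67 window held 3 CCAAT boxes and 2 CHR matches.

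Windows were matched for 32 of the 40 members. Those of Aurkb, Ccna2, Ccnd1, Foxm1, Gins2, Kif20a, Mcm4 and Tpx2 were not used here. E2F letters stood in 7 of the 13 matched replication members (Cdc6, Cdt1, Mcm3, Mcm5, Mcm6, Mcm7 and Uhrf1) and in 1 of the 19 matched cyclin and mitotic members (Cdk1), where 2.6% of 27025 gene windows held them. CHR letters stood in 2 of the 13 replication members, Mcm2 and Mcm7, and in 14 of the 19 others, against 21.7% of all windows. A CCAAT box stood in 9 of the 13 and in 16 of the 19, against 41.1% of all windows. These are matches of letters in a window, which show neither binding nor use.

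Some facts of the libraries touch every value below. About 14700000 to 17900000 fragments fell on genes in a library, and between 21814 and 23236 genes were above 0. Epithelial genes, markers of the lining of the colon, were high in every library, with Epcam at 599.1 to 1195 FPKM and Krt8 at 1506 to 3325 FPKM. Several libraries stood apart. CD+DSS replicate 2 had the lowest summed level of the posterior Hox genes (Hoxa13, Hoxb13, Hoxd13), markers of the anal end of the gut (1.62 FPKM against 7.04 to 111 in the other 11), the lowest sum of crypt stem cell and Wnt genes (53.8 FPKM) and the highest sum of epithelial genes (10750 FPKM). HFD+DSS replicate 1 had the highest sum of B cell and germinal centre genes (91.0 FPKM against 11.1 to 61.4) and of neutrophil genes (562.6 FPKM against 3.53 to 166.1), a sum in which Ly6g alone held 520.8 FPKM. Ly6g also made nearly all of the 166.1 FPKM of CD replicate 2 (165.2 FPKM), where the neutrophil gene S100a8 was at 0.183 FPKM, so this sum mainly followed Ly6g. In HFD+DSS replicate 1, S100a8 was at its highest (22.3 FPKM against 0 to 8.50). S100a9, another neutrophil gene, was at 15.95 FPKM there and highest in CD+DSS replicate 3 (16.6 FPKM). HFD+DSS replicate 3 had the highest sum of smooth muscle genes (3072 FPKM against 649 to 1800) and of enteric neuron and glia genes (90.0 FPKM against 18.7 to 38.4). CD replicate 3 had the highest sum of squamous epithelium genes (28.3 FPKM against 0.434 to 1.19), in which Krt15 held 17.4 FPKM. It also had the highest sum of goblet cell genes (9484 FPKM against 2980 to 6620).

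None of the 40 members passed the test in any comparison with all 12 libraries. With limma and Benjamini-Hochberg adjustment at 0.05 over all genes tested, 0 of 40 members were called for DSS under either diet, for HFD with or without DSS, for the averaged effects of DSS and of HFD, or for the interaction. Limma voom on the recovered fragments also called 0. The members shared a direction within several comparisons, and much of that rested on 1 library. Values without CD+DSS replicate 2 are therefore given beside many of those with it.

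The 40 members summed to 586.7, 452.1 and 391.3 FPKM in HFD+DSS, to 400.4, 247.9 and 498.9 FPKM in CD+DSS, to 450.2, 451.1 and 533.4 FPKM in HFD, and to 516.5, 490.2 and 488.3 FPKM in CD. CD+DSS replicate 2 was the lowest of the 12 libraries and HFD+DSS replicate 1 the highest, and DSS groups overlapped with their controls on both diets. The highest place depended on scaling. As a share of all FPKM in a library, CD+DSS replicate 3 and CD replicate 1 (0.153% each) were above HFD+DSS replicate 1 (0.1465%). By that share CD+DSS replicate 2 was still the lowest (0.0571%). By gene, CD+DSS replicate 2 was the lowest of all 12 libraries in 36 of the 40 members. Its level was a median of 0.50 times the mean of the other 2 CD+DSS libraries, with a range between 0.318 for Aurkb and 0.919 for Pcna. HFD+DSS replicate 1 was the highest library in 16 members. The ratio of the highest to the lowest library had a median of 2.76 over the members, running between 1.66 for Pcna and 5.07 for Kif11, and exceeded 2 in 34 of them. Without CD+DSS replicate 2 the median ratio was 1.86, and 15 members exceeded 2.

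**Figure D1:**
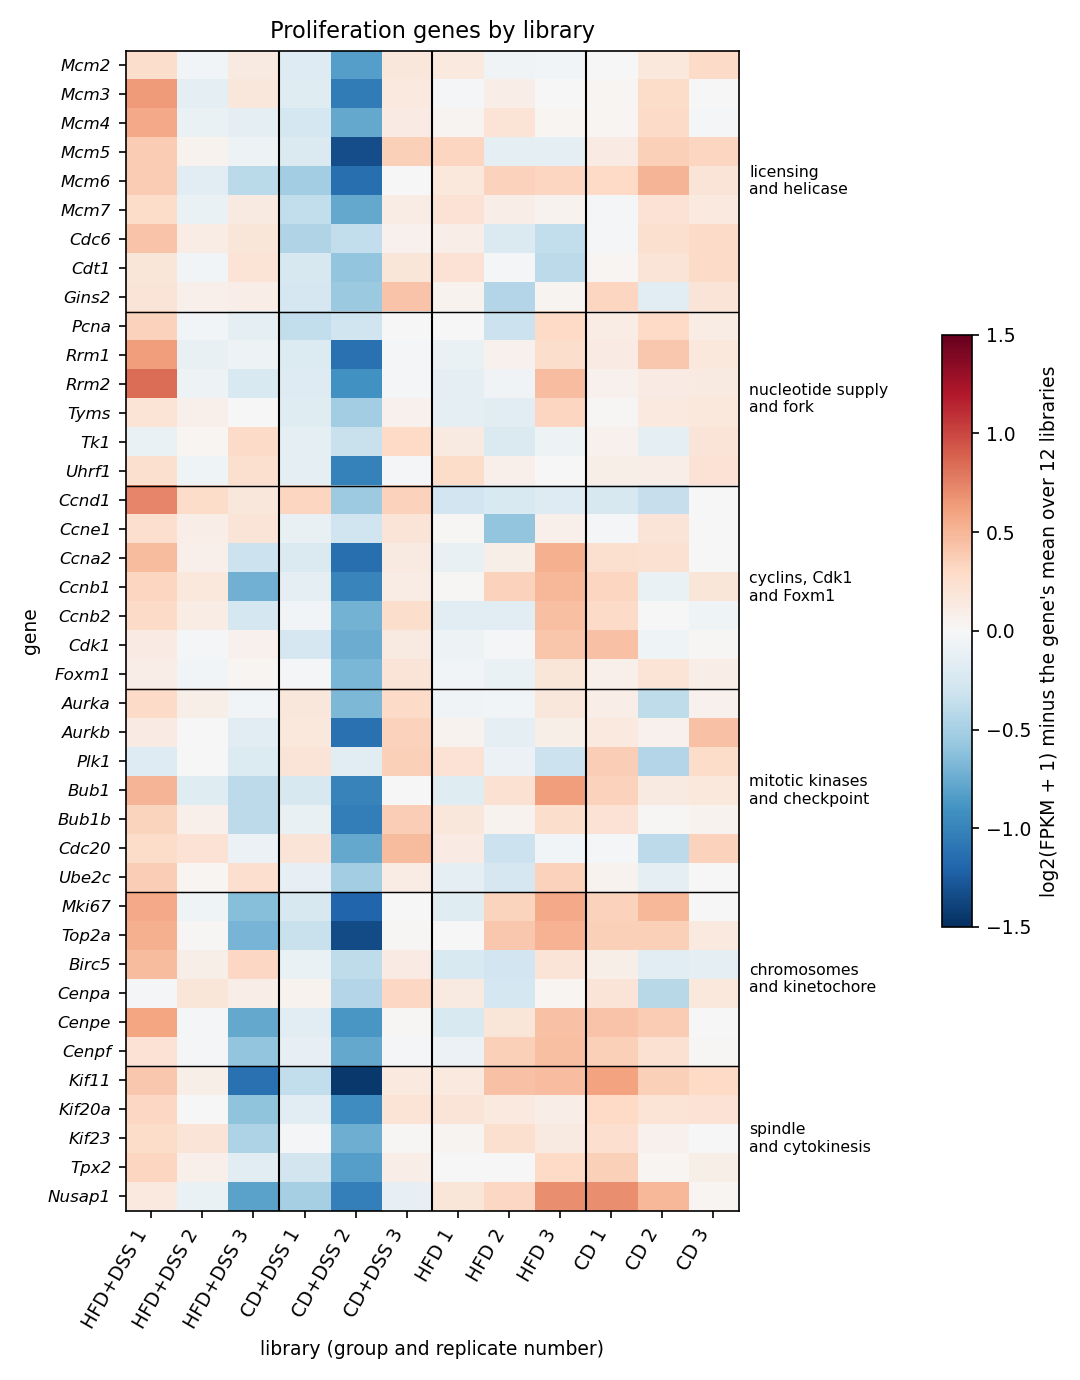
Level of each of the 40 members in each of the 12 libraries, as the log2(FPKM + 1) deviation from that gene's mean over all libraries, with members in rows by role and libraries in columns by group. CD+DSS replicate 2 is the lowest library in 36 of 40 rows, and HFD+DSS replicate 1 is the highest in 16.

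Licensing and helicase genes were below 0 throughout for DSS under CD. Mcm6 (ENSMUSG00000026355, mm10 chromosome 1, 128331590 to 128359664), a subunit of the helicase ring and the most abundant of these 9 genes, had 23.1, 15.6 and 13.0 FPKM in HFD+DSS, 11.9, 7.45 and 17.3 FPKM in CD+DSS, 19.7, 22.5 and 22.0 FPKM in HFD, and 21.6, 25.3 and 20.1 FPKM in CD. Every CD+DSS library lay under every CD library, while HFD+DSS and HFD overlapped. CD+DSS minus CD was -0.89 ± 0.27 log2 (SE, adjusted p = 0.187, limma), and HFD+DSS minus HFD was -0.33 ± 0.27 log2. Averaged over diets the DSS difference was -0.61 ± 0.19 log2 with an adjusted p of 0.0984. Without CD+DSS replicate 2 the difference under CD was -0.60 ± 0.24 log2, and that averaged over diets was -0.47 ± 0.16 log2.

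Cdc6 (ENSMUSG00000017499, chromosome 11, 98907801 to 98923940), the ATPase that helps load the helicase on origins, was the lowest member. It had 2.48, 1.80 and 1.92 FPKM in HFD+DSS, 0.887, 0.992 and 1.69 FPKM in CD+DSS, 1.77, 1.23 and 0.998 FPKM in HFD, and 1.56, 2.04 and 2.16 FPKM in CD. The 3 HFD+DSS libraries lay above all 3 CD+DSS libraries and above all 3 HFD libraries. HFD+DSS minus CD+DSS was 0.50 ± 0.19 log2 (SE, adjusted p = 0.732), and HFD minus CD was -0.33 ± 0.19 log2 (adjusted p = 1). Its interaction, the DSS difference under HFD minus that under CD, was the largest among members at 0.83 ± 0.26 log2 (adjusted p = 0.748), and 0.77 ± 0.28 without CD+DSS replicate 2.

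Cdt1, the licensing factor that brings the helicase to the origin with Cdc6, had 6.89, 5.76 and 7.01 FPKM in HFD+DSS, 4.88, 3.61 and 6.90 FPKM in CD+DSS, 7.08, 5.83 and 4.32 FPKM in HFD, and 6.11, 6.95 and 7.49 FPKM in CD. All pairs of groups overlapped. Its interaction was 0.57 ± 0.29 log2 (adjusted p = 0.978), and 0.38 ± 0.27 without CD+DSS replicate 2. The other helicase subunits Mcm2, Mcm3, Mcm4, Mcm5 and Mcm7 and the helicase cofactor Gins2 had mean levels between 2.03 FPKM for Gins2 and 12.0 FPKM for Mcm5, and each was lowest in CD+DSS replicate 2. Gins2 shares 2758 bases of exon with Gse1 on the opposite strand, which averaged 4.75 FPKM, and whether the counting used strand is not given, so its value is uncertain.

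Across the 9 licensing and helicase genes the median log2 difference was -0.44 for CD+DSS minus CD, with all 9 below 0, and 0.11 for HFD+DSS minus HFD, with 7 of 9 above 0. For HFD+DSS minus CD+DSS the median was 0.44, with all 9 above 0. Those for DSS under CD and HFD with DSS were -0.20 and 0.18 without CD+DSS replicate 2.

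Among genes of nucleotide supply and the fork, Pcna (ENSMUSG00000027342, chromosome 2, 132249162 to 132253314), the sliding clamp that holds polymerases on DNA, was the most abundant of all members. It had 56.9, 43.4 and 40.3 FPKM in HFD+DSS, 34.2, 36.1 and 44.3 FPKM in CD+DSS, 44.7, 35.6 and 55.2 FPKM in HFD, and 48.0, 54.9 and 48.3 FPKM in CD. The CD+DSS libraries lay under all CD libraries, and CD+DSS replicate 1 rather than replicate 2 was the lowest of the 12. CD+DSS minus CD was -0.40 ± 0.19 log2 (SE, adjusted p = 0.354), and -0.36 ± 0.22 without CD+DSS replicate 2.

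Rrm1 (chromosome 7, 102441695 to 102469771), the large subunit of ribonucleotide reductase, had 11.3, 6.39 and 6.57 FPKM in HFD+DSS, 5.90, 2.68 and 6.90 FPKM in CD+DSS, 6.44, 7.34 and 8.60 FPKM in HFD, and 7.65, 9.51 and 7.87 FPKM in CD. Again the CD+DSS libraries did not reach the CD libraries, and HFD+DSS replicate 1 was the highest of all. The difference was -0.67 ± 0.28 log2 for CD+DSS minus CD (SE, adjusted p = 0.299), and the interaction was 0.74 ± 0.39 log2 (adjusted p = 1). They were -0.33 ± 0.23 and 0.40 ± 0.30 without CD+DSS replicate 2.

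Uhrf1 (chromosome 17, 56303321 to 56323486), which brings the maintenance methyltransferase to newly copied DNA, had 12.3, 9.72 and 12.2 FPKM in HFD+DSS, 9.17, 4.58 and 10.1 FPKM in CD+DSS, 12.5, 10.9 and 10.2 FPKM in HFD, and 10.9, 11.0 and 12.1 FPKM in CD. The CD+DSS libraries were under all CD libraries, and 2 of the 3 were under all HFD+DSS libraries. HFD+DSS minus CD+DSS was 0.53 ± 0.23 log2 (adjusted p = 0.749), and 0.22 ± 0.15 without CD+DSS replicate 2. The reductase subunit Rrm2, the thymidylate synthase gene Tyms and the thymidine kinase gene Tk1 averaged 10.4, 4.93 and 5.80 FPKM. Over the 6 genes the median difference was -0.44 log2 for DSS under CD and 0.08 log2 for DSS under HFD, and the first was -0.22 without CD+DSS replicate 2.

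Ccnd1 and Ccne1 had their highest mean levels in HFD+DSS, while other cyclins of cycle entry did not, with Ccnd2 and Ccne2 highest in CD and Ccnd3 in CD+DSS. Ccnd1 (ENSMUSG00000070348, chromosome 7, 144929931 to 144939925), the D-type cyclin that couples growth signals to cycle entry, had 36.7, 26.3 and 24.4 FPKM in HFD+DSS, 27.3, 14.5 and 27.7 FPKM in CD+DSS, 17.6, 18.4 and 18.9 FPKM in HFD, and 18.2, 16.8 and 21.6 FPKM in CD. Every HFD+DSS library was above every HFD library, and 2 of the 3 CD+DSS libraries were above every CD library, with CD+DSS replicate 2 under them all. HFD+DSS minus HFD was 0.62 ± 0.24 log2 (SE, adjusted p = 0.291) and CD+DSS minus CD was 0.23 ± 0.24 log2 (adjusted p = 0.653). Averaged over diets the DSS difference was 0.43 ± 0.17 log2 (adjusted p = 0.163). Without CD+DSS replicate 2 it was 0.58 ± 0.13 log2 with an adjusted p of 0.0487, one of only 2 settings in which any member was called. Across the fits of this comparison with 1 library left out, between 114 and 479 of the 14179 genes tested were called. Ccnd1 shares 818 bases of exon with LTO1 on the opposite strand, which averaged 2.99 FPKM.

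Ccne1 (chromosome 7, 38097984 to 38107534), the E-type cyclin that drives entry into replication, had 3.50, 3.05 and 3.33 FPKM in HFD+DSS, 2.49, 2.06 and 3.30 FPKM in CD+DSS, 2.81, 1.49 and 2.96 FPKM in HFD, and 2.70, 3.32 and 2.77 FPKM in CD. The HFD+DSS libraries lay above all HFD libraries, and HFD replicate 2 was the lowest of the 12. HFD+DSS minus HFD was 0.36 ± 0.19 log2 (adjusted p = 0.437), and HFD minus CD was -0.23 ± 0.19 log2 (adjusted p = 1) and -0.01 log2 without HFD replicate 2.

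Foxm1 (chromosome 6, 128362967 to 128376146), the transcription factor of the mitotic gene programme, had 4.34, 3.82 and 4.06 FPKM in HFD+DSS, 3.91, 2.10 and 4.68 FPKM in CD+DSS, 3.85, 3.65 and 4.62 FPKM in HFD, and 4.25, 4.72 and 4.35 FPKM in CD. Apart from CD+DSS replicate 2, its 11 libraries spanned only 1.30-fold, the narrowest range of any member. The differences were -0.30 ± 0.20 log2 for CD+DSS minus CD (adjusted p = 0.471), -0.04 ± 0.14 without CD+DSS replicate 2, and 0.01 ± 0.20 log2 for HFD+DSS minus HFD (adjusted p = 0.981). The mitotic cyclins Ccna2, Ccnb1 and Ccnb2 averaged 18.7, 9.86 and 21.9 FPKM and their kinase Cdk1 averaged 7.87 FPKM, each lowest in CD+DSS replicate 2. The 7 genes of this role had a median of -0.30 log2 for DSS under CD and -0.04 log2 without CD+DSS replicate 2.

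**Figure D2:**
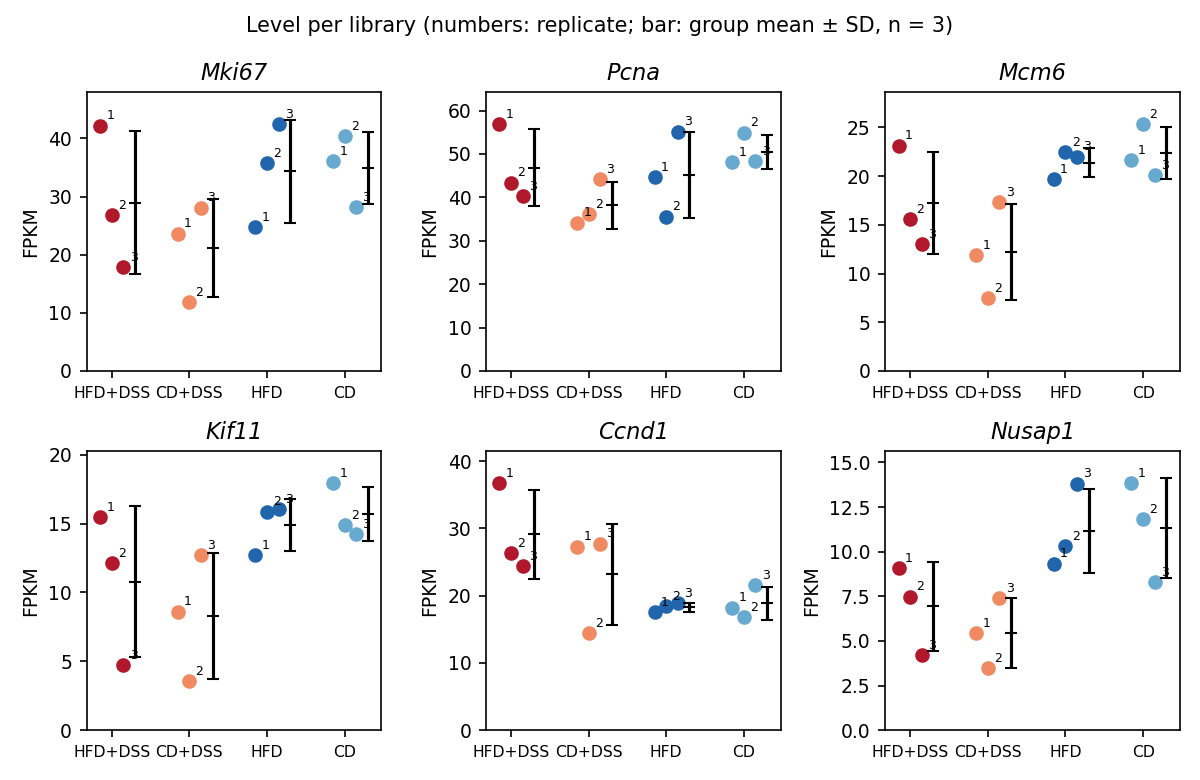
FPKM of 6 members in each library, with points for the 3 libraries of each group, their replicate numbers, and a bar at the group mean ± SD (n = 3). Ccnd1 is higher in all 3 HFD+DSS libraries (24.4 to 36.7 FPKM) than in all 3 HFD libraries (17.6 to 18.9 FPKM), and CD+DSS replicate 2 is the lowest point of its group in each panel but that of Pcna.

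Mitotic kinase and checkpoint genes had 6 of 7 differences below 0 for DSS under CD, and 3 above and 4 below 0 for DSS under HFD. Plk1 (ENSMUSG00000030867, chromosome 7, 122159439 to 122169873), the kinase that governs mitotic entry and centrosome maturation, had 23.6, 26.9 and 23.3 FPKM in HFD+DSS, 31.1, 24.1 and 34.9 FPKM in CD+DSS, 31.6, 25.4 and 21.5 FPKM in HFD, and 35.3, 19.6 and 33.1 FPKM in CD. All groups overlapped, and CD replicate 2, not CD+DSS replicate 2, was the lowest. HFD+DSS minus CD+DSS was -0.26 ± 0.23 log2 (SE, adjusted p = 0.865), and Plk1 was the only member below 0 in that comparison. Without CD+DSS replicate 2 its difference was -0.41 ± 0.25 log2. An annotated transcript on the opposite strand, Gm44985, shares 156 bases of exon with Plk1 and averaged 19.5 FPKM, so reads of both cannot be told apart if strand was not used.

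The Aurora kinases Aurka and Aurkb, the checkpoint kinases Bub1 and Bub1b, and the anaphase-promoting complex partners Cdc20 and Ube2c averaged 9.76, 7.71, 4.33, 7.74, 19.3 and 18.2 FPKM. Of the 7 genes of this role, Bub1 alone had CD+DSS libraries (3.35, 1.55 and 4.10 FPKM) wholly under the CD libraries (5.50, 4.62 and 4.70 FPKM). The median of the 7 was -0.16 log2 for DSS under CD and 0.20 log2 for HFD with DSS, and both changed sign without CD+DSS replicate 2, to 0.04 and -0.12 log2.

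Of the 6 chromosome and kinetochore genes, 3 had CD+DSS libraries wholly under the CD libraries and 0 wholly above, as 10.4% and 13.7% of all genes did. Mki67 (ENSMUSG00000031004, chromosome 7, 135689784 to 135716361), the coat protein of mitotic chromosomes that is the usual stain for cycling cells, had 42.2, 26.8 and 17.8 FPKM in HFD+DSS, 23.6, 11.8 and 28.1 FPKM in CD+DSS, 24.8, 35.7 and 42.5 FPKM in HFD, and 36.1, 40.4 and 28.2 FPKM in CD. The highest CD+DSS library fell just short of the lowest CD library, and the 3 HFD+DSS libraries spread over most of the range of the experiment. The differences were -0.76 ± 0.36 log2 for CD+DSS minus CD (adjusted p = 0.336) and -0.29 ± 0.36 log2 for HFD+DSS minus HFD (adjusted p = 0.75). The first was -0.41 ± 0.33 log2 without CD+DSS replicate 2.

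Top2a (chromosome 11, 98992943 to 99024189), the topoisomerase that untangles sister chromatids, had 31.1, 21.3 and 12.7 FPKM in HFD+DSS, 16.5, 7.75 and 21.4 FPKM in CD+DSS, 21.3, 28.3 and 30.6 FPKM in HFD, and 27.4, 27.4 and 23.4 FPKM in CD. CD+DSS lay wholly under CD, and HFD+DSS ranged widely, with replicate 1 the highest of the 12. CD+DSS minus CD was -0.84 ± 0.35 log2 (SE, adjusted p = 0.305), and -0.45 ± 0.31 without CD+DSS replicate 2.

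Birc5 (chromosome 11, 117849251 to 117855743), survivin, a subunit of the chromosomal passenger complex, had 10.2, 7.61 and 9.07 FPKM in HFD+DSS, 6.54, 5.23 and 7.80 FPKM in CD+DSS, 5.92, 5.65 and 8.22 FPKM in HFD, and 7.60, 6.27 and 6.40 FPKM in CD. The HFD+DSS libraries were mostly the highest but overlapped with both CD+DSS and HFD. HFD+DSS minus HFD was 0.40 ± 0.18 log2 (adjusted p = 0.362), and HFD+DSS minus CD+DSS was 0.41 ± 0.18 log2 (adjusted p = 0.749). The latter was 0.28 ± 0.18 log2 without CD+DSS replicate 2. The centromeric histone gene Cenpa and the kinetochore genes Cenpe and Cenpf averaged 4.92, 5.45 and 3.38 FPKM.

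The spindle genes Kif11 and Nusap1 had the largest differences of the whole set for DSS under CD. Over the 5 spindle genes the median was -0.53 log2, beside -0.55 over the 6 chromosome and kinetochore genes. These medians were -0.24 and -0.30 without CD+DSS replicate 2. Kif11 (chromosome 19, 37376403 to 37421859), the kinesin that pushes spindle poles apart, had 15.5, 12.2 and 4.73 FPKM in HFD+DSS, 8.61, 3.54 and 12.7 FPKM in CD+DSS, 12.7, 15.9 and 16.1 FPKM in HFD, and 17.9, 14.9 and 14.2 FPKM in CD. CD+DSS lay under CD in every library, and HFD+DSS replicate 3 was near the low end as well. CD+DSS minus CD was -0.98 ± 0.41 log2 (SE, adjusted p = 0.305), and -0.53 ± 0.37 without CD+DSS replicate 2.

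Nusap1 (ENSMUSG00000027306, chromosome 2, 119618298 to 119651244), a microtubule-bundling protein of the spindle, had 9.09, 7.49 and 4.22 FPKM in HFD+DSS, 5.46, 3.49 and 7.38 FPKM in CD+DSS, 9.33, 10.3 and 13.8 FPKM in HFD, and 13.8, 11.8 and 8.30 FPKM in CD. It was the only member whose DSS libraries lay wholly under their controls on both diets. The differences were -0.65 ± 0.29 log2 for HFD+DSS minus HFD (SE, adjusted p = 0.367) and -0.96 ± 0.29 log2 for CD+DSS minus CD (adjusted p = 0.193). Averaged over diets it was -0.80 ± 0.21 log2 with an adjusted p of 0.063. In this comparison without CD replicate 3, the other setting that called a member, 479 of the 14179 genes tested were called. The Nusap1 difference there was -0.90 ± 0.21 log2 with an adjusted p of 0.0492. Without CD+DSS replicate 2 it was -0.68 ± 0.20 log2 averaged over diets (adjusted p = 0.112) and -0.72 ± 0.30 log2 under CD. Nusap1 shares 172 bases of exon with Oip5 on the opposite strand, which averaged 2.65 FPKM. The kinesins Kif20a and Kif23 and the spindle assembly factor Tpx2 averaged 4.89, 4.69 and 9.26 FPKM.

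HFD+DSS replicate 3 set the chromosome and spindle members below the replication members. There the 15 licensing, nucleotide and fork genes had a median deviation of 0.10 log2 from their mean over the libraries, while the 11 chromosome and spindle genes had -0.61. The 7 kinase and checkpoint genes had -0.16 and the 7 cyclins and regulators 0.03. The gap of -0.70 between the first 2 sets compares with gaps between -0.16 and 0.41 in the other 11 libraries. Against the mean of the other 2 HFD+DSS libraries, the chromosome and spindle genes ran between 0.343 times for Kif11 and 1.02 times for Birc5, and the replication genes between 0.597 times for Rrm2 and 1.30 times for Tk1. This was also the library with the highest smooth muscle and enteric neuron sums. Over the 40 members the Spearman correlation between exon length and deviation was -0.24 there, and ran between -0.35 and 0.46 over the libraries. Over 14174 tested genes it was -0.19 there, next to the lowest, -0.20 in CD+DSS replicate 2, and the highest was 0.25 in HFD replicate 2. The part of other cells or of exon length in the gap, or in the low values of CD+DSS replicate 2, was not tested.

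The comparison of CD+DSS with CD asks what DSS did to proliferation genes on the CD diet. Of 40 members 0 were called, where 0.0705% of all genes were called higher and 0.0141% lower, 0.0846% together. At an unadjusted p under 0.05, 8 were lower and 0 higher, where 6.49% of all genes were lower and 8.67% higher. Without CD+DSS replicate 2, Mcm6 and Nusap1 were lower (2 of 40) and Ccnd1 was higher (1 of 40) at that p. The share of all genes in that fit is not given here, so these counts are no result about the members. CD+DSS lay wholly under CD in 11 members, namely Mcm6, Pcna, Rrm1, Rrm2, Uhrf1, Bub1, Mki67, Top2a, Cenpf, Kif11 and Nusap1, and wholly above in 0, where 10.4% and 13.7% of all genes did so. The difference was below 0 in 37 of 40 members, against 48.5% of all genes, with a median of -0.42 log2 beside 0.01 over all genes. The 3 members above 0 were Ccnd1, Plk1 and Cenpa, with Cenpa at 0.00 log2.

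Without CD+DSS replicate 2 the median under CD was -0.18 log2, with 29 members below 0 and 11 above. In this comparison 0 marker genes of other cells were called, while several sums of their lists lay apart. The 13 crypt stem cell and Wnt genes summed to 53.8 to 99.3 FPKM in CD+DSS, against 101.2 to 113.5 FPKM in CD, and the 10 epithelial genes summed to 6766 to 10750 FPKM in CD+DSS, against 5642 to 6222 FPKM in CD. T and NK cell genes summed to 81.4 to 178 FPKM in CD+DSS and 27.1 to 74.8 FPKM in CD. Much of these sums was Gzma, with 25.5 to 68.3 FPKM in CD+DSS and 6.50 to 22.95 FPKM in CD. Of the 11 genes in that list, CD+DSS lay wholly above CD in 6 and wholly under in 0, where 13.7% and 10.4% of all genes did so. The posterior Hox genes summed to 1.62 to 40.5 FPKM in CD+DSS and 38.3 to 111.1 FPKM in CD, with Hoxb13 near 0 in CD+DSS replicates 2 and 3 (0.0336 and 0.122 FPKM). With the mean level of those 3 genes as a covariate the median was -0.27 log2. Their part in the difference was not tested beyond that fit.

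The comparison of HFD+DSS with HFD asks the same on the high-fat diet. Again 0 members were called, where 0.247% of all genes were called higher and 0.0917% lower, 0.339% together. At an unadjusted p under 0.05, Ccnd1 and Birc5 were higher and Nusap1 lower, 2 and 1 of 40, where 7.34% and 6.23% of all genes were. HFD+DSS lay wholly above HFD for 4 members (Cdc6, Gins2, Ccnd1 and Ccne1) and wholly under it for 1 (Nusap1), where 8.82% and 7.6% of all genes did so. The difference was above 0 in 22 members and below 0 in 18, with a median of 0.02 log2 beside 0.01 over all genes, and the median was -0.01 when libraries were scaled by their total fragments. With the posterior Hox covariate it was -0.13, with 12 members above 0 and 28 below. The posterior Hox genes themselves summed to 46.6 to 92.8 FPKM in HFD+DSS and 7.04 to 34.75 FPKM in HFD, without overlap. By role the medians were 0.11 for licensing, 0.08 for nucleotide supply, 0.00 for cyclins, -0.02 for kinases, -0.24 for chromosomes and -0.24 for the spindle. Without HFD+DSS replicate 3 the median of all members was 0.10, and without HFD+DSS replicate 1 it was -0.08. Crypt stem cell and Wnt genes summed to 67.9 to 78.8 FPKM in HFD+DSS and 82.5 to 102.7 FPKM in HFD. T and NK cell genes summed to 36.0 to 66.1 FPKM in HFD+DSS and 81.9 to 117.7 FPKM in HFD. Gzma held 8.54 to 19.1 FPKM of the former and 32.9 to 41.2 FPKM of the latter. Of the 11 T and NK cell genes, HFD+DSS lay wholly under HFD in 5 and wholly above in 0. The part of either list in these differences was not tested.

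**Figure D3:**
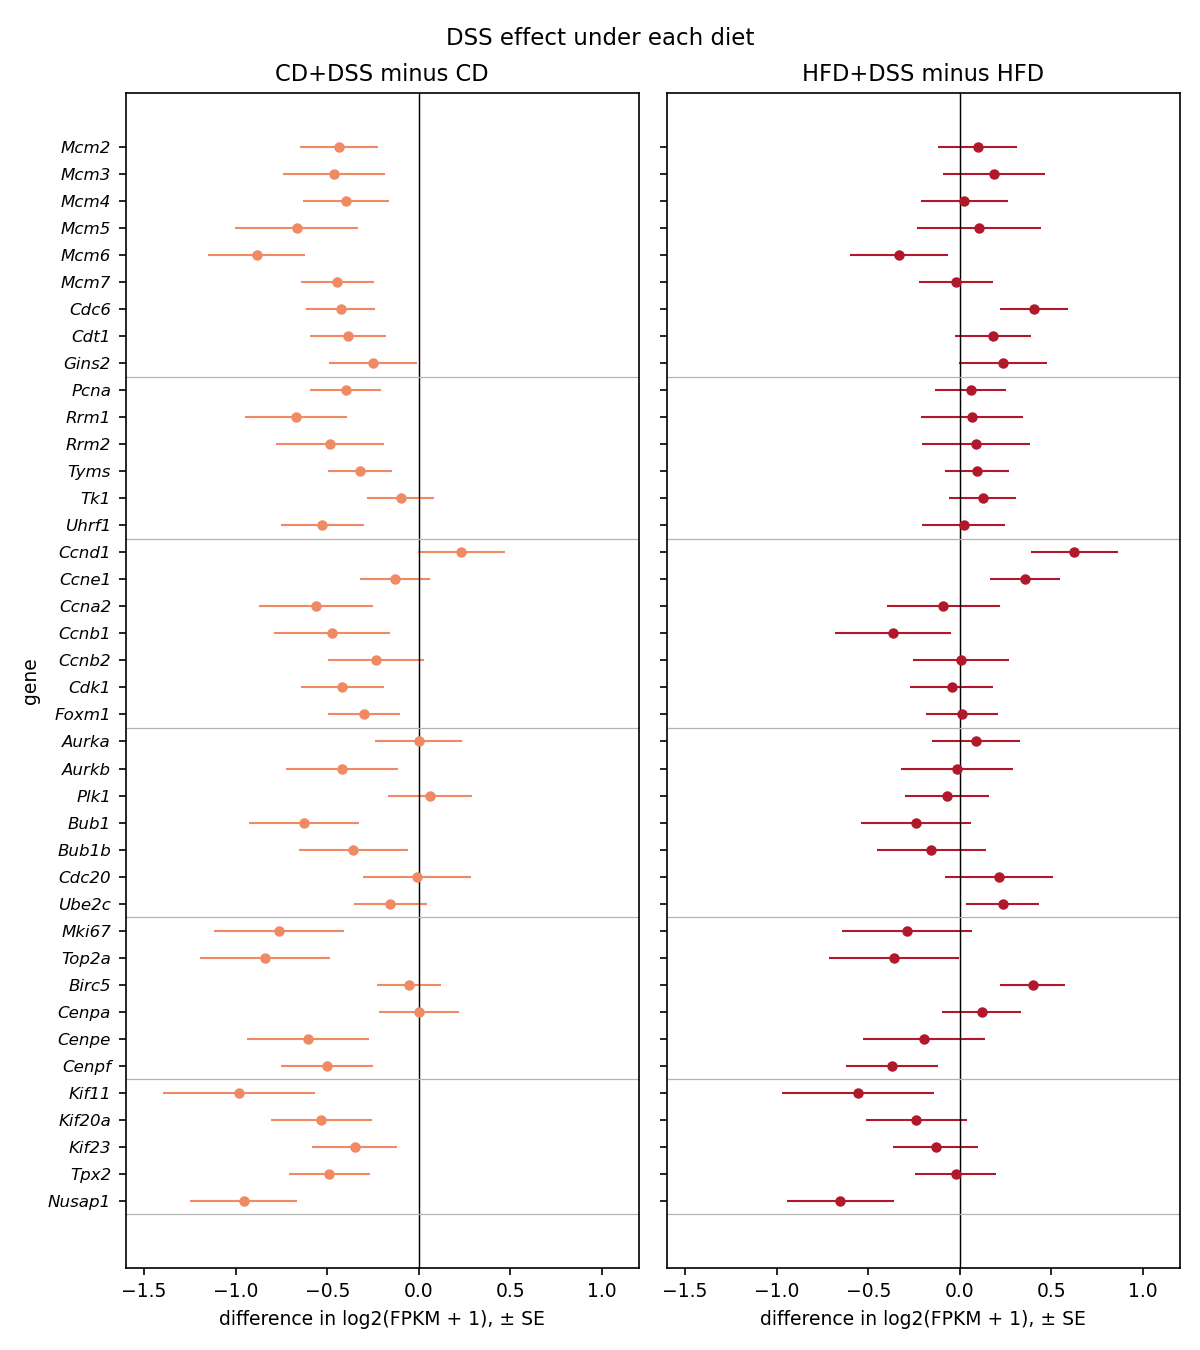
Log2 difference with its standard error for each of the 40 members, CD+DSS minus CD on the left and HFD+DSS minus HFD on the right, with grey lines between the 6 roles. Under CD 37 of 40 lie below 0 with a median of -0.42, and under HFD 22 lie above 0 and 18 below with a median of 0.02.

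Whether the DSS difference itself depended on diet was tested by the interaction, HFD+DSS minus HFD less CD+DSS minus CD. No gene of the table passed, so 0 members and 0% of all genes were called, and at an unadjusted p under 0.05 only Cdc6 was higher and 0 members were lower, where 2.69% and 2.73% of all genes were. The interaction was above 0 in 39 of 40 members, against 49% of all genes, with a median of 0.42 log2. Cdc6 kept an unadjusted p under 0.05 without CD+DSS replicate 2 (0.0216). The median was 0.13 without CD+DSS replicate 2, with 28 members above 0, and 0.11 with the posterior Hox covariate, with 24 above 0. Since no member passed, a diet-dependent effect of DSS on these genes was not shown.

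The comparison of HFD with CD in samples without DSS asks for the effect of diet alone. Of 40 members 0 were called, as were 0% of all genes, and 0 members had an unadjusted p under 0.05, where 1.77% of all genes were higher and 2.38% lower. The difference was below 0 in 30 members and above 0 in 10, against 54.1% and 45.9% of all genes, with a median of -0.05 log2, and ran between -0.33 for Cdc6 and 0.15. HFD lay wholly under CD for 1 member and wholly above it for 0, where 5.02% and 4.61% of all genes did so. The 1 member was Kif20a, with 5.54, 5.32 and 5.12 FPKM in HFD and 6.07, 5.58 and 5.64 FPKM in CD. Kif20a shares 977 bases of exon with Cdc23 on the opposite strand, which averaged 3.15 FPKM, so its value is uncertain. With the posterior Hox covariate the median changed sign to 0.09. The posterior Hox genes themselves summed to 7.04 to 34.75 FPKM in HFD and 38.3 to 111.1 FPKM in CD, without overlap. T and NK cell genes summed to 81.9 to 117.7 FPKM in HFD and 27.1 to 74.8 FPKM in CD, and their part was not tested. Gzma held 32.9 to 41.2 FPKM of the HFD sums and 6.50 to 22.95 FPKM of the CD sums. Of the 11 genes in that list, HFD lay wholly above CD in 5 and wholly under in 0.

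The comparison of HFD+DSS with CD+DSS asks for the effect of diet under DSS, and it shares the CD+DSS libraries with the comparison of DSS under CD. Here too 0 members and 0% of all genes were called. At an unadjusted p under 0.05, Cdc6, Uhrf1, Birc5 and Mcm7 were higher and 0 were lower, where 2.77% and 3.84% of all genes were. None of these 4 had such a p without CD+DSS replicate 2, where 0 members were higher and 0 lower, and the share of all genes in that fit is not given here. HFD+DSS lay wholly above CD+DSS for 1 member, Cdc6, and wholly under it for 0, where 3.6% and 5.85% of all genes did so. The difference was above 0 in 39 of 40 members and below 0 in 1, against 45.4% and 54.6% of all genes, with a median of 0.34 log2 beside -0.03 over all genes. Without CD+DSS replicate 2 the median was 0.09, with 27 above 0, and with the posterior Hox covariate it was 0.15. Beside these values, B cell and germinal centre genes summed to 11.1 to 91.0 FPKM in HFD+DSS and 15.4 to 38.9 FPKM in CD+DSS. T and NK cell genes summed to 36.0 to 66.1 FPKM in HFD+DSS and 81.4 to 178 FPKM in CD+DSS, without overlap. Gzma weighed heavily in these sums, with 8.54 to 19.1 FPKM in HFD+DSS and 25.5 to 68.3 FPKM in CD+DSS. Of the 11 genes in that list, HFD+DSS lay wholly under CD+DSS in 5 and wholly above in 0, and Cd2 and Cd4 overlapped. Smooth muscle genes summed to 1080 to 3072 FPKM in HFD+DSS and 649 to 1232 FPKM in CD+DSS, with all 10 above 0 and a median of 0.79 log2. Posterior Hox genes summed to 46.6 to 92.8 FPKM in HFD+DSS and 1.62 to 40.5 FPKM in CD+DSS. Apart from the fit with the Hox covariate, the part of these cells was not tested.

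**Figure D4:**
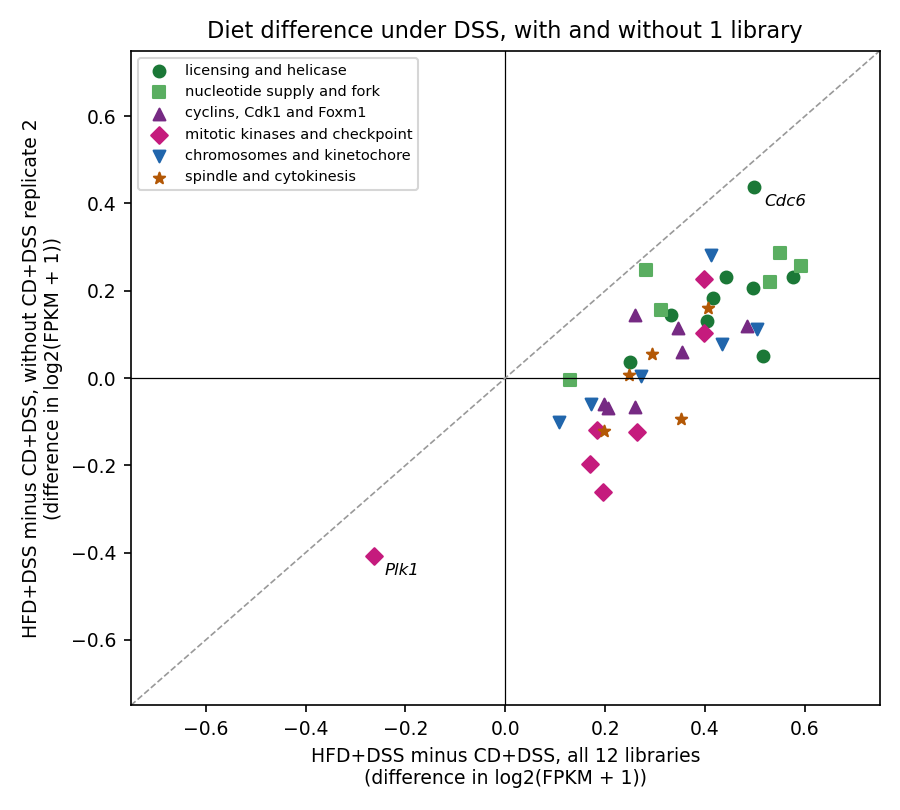
Log2 difference of HFD+DSS minus CD+DSS for each of the 40 members, from all 12 libraries on the horizontal axis and without CD+DSS replicate 2 on the vertical axis, with a dashed line of equality and colours by role. With all libraries 39 members lie above 0, and without that library 27 do, with Cdc6 the highest (0.44) and Plk1 the lowest.

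Averaged over the diets, DSS gave 0 called members where 2.74% of all genes were called, the comparison with the most calls in the table. At an unadjusted p under 0.05, Ccnd1 was higher and 5 members were lower, where 13% and 10.5% of all genes were. Leaving out CD+DSS replicate 2 gave 1 higher (Ccnd1) and 2 lower (Mcm6 and Nusap1). Without the share of all genes in that fit, which is not given here, these counts are no result about the members. The 6 DSS libraries lay wholly above or wholly under the 6 others in 0 members, where 2.17% and 1.29% of all genes did so. The median was -0.21 log2 with 32 members below 0, and -0.06 without CD+DSS replicate 2. Averaged over DSS, HFD gave 0 called members where 0% of all genes were called, and 0 members with an unadjusted p under 0.05, where 1.77% of all genes were higher and 2.9% lower. The median was 0.14 log2 with 38 members above 0, and 0.02 with 23 above 0 without CD+DSS replicate 2.

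Other genes of the cycle gave the only calls. Of 42 other replication genes tested, 51 other mitosis genes, 10 G1 cyclins, kinases and growth signals, and 19 cycle inhibitors, 1 of each list passed, all for DSS averaged over diets, where 1.87% of all genes were called higher and 0.875% lower. In the 6 other comparisons each list had 0 called genes.

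Wee1, the kinase that holds Cdk1 inactive until mitosis, had 5.98, 4.74 and 3.22 FPKM in HFD+DSS and 3.45, 3.92 and 5.39 FPKM in CD+DSS, against 8.47, 9.28 and 7.34 FPKM in HFD and 9.44, 7.80 and 7.40 FPKM in CD. Every DSS library was under every library without DSS. Wee1 fell by 0.79 ± 0.14 log2 (SE, adjusted p = 0.0176). The call held in 17 of 19 alternative settings and was lost without HFD replicate 2 (0.0615) and without CD replicate 1 (0.0619).

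Cdk6, a kinase partner of D-type cyclins, had 2.35, 2.73 and 1.29 FPKM in HFD+DSS and 2.22, 1.94 and 3.09 FPKM in CD+DSS, against 4.64, 5.94 and 3.97 FPKM in HFD and 4.60, 3.82 and 3.84 FPKM in CD, with no overlap between the DSS libraries and the others. It fell by 0.75 ± 0.15 log2 (adjusted p = 0.0237), a call that held in 12 of 19 settings and reached an adjusted p of 0.0776 without HFD replicate 2. Leaving out HFD replicate 1, CD+DSS replicate 1, CD replicate 1 or CD replicate 2 also ended it.

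Ckap2, a microtubule-associated protein of the spindle, had 4.92, 4.33 and 3.36 FPKM in HFD+DSS and 3.64, 2.77 and 3.36 FPKM in CD+DSS, against 5.02, 6.89 and 7.18 FPKM in HFD and 5.22, 4.95 and 5.00 FPKM in CD. It fell by 0.51 ± 0.11 log2 (adjusted p = 0.041). E2f2, an activating E2F factor, had 8.43, 10.3 and 11.8 FPKM in HFD+DSS and 10.1, 7.16 and 9.89 FPKM in CD+DSS, against 5.85, 5.07 and 7.48 FPKM in HFD and 5.81, 6.06 and 7.30 FPKM in CD. It rose by 0.54 ± 0.13 log2 (adjusted p = 0.0481), with only CD+DSS replicate 2 among the DSS libraries under the highest library without DSS. The call of Ckap2 held in 6 of 19 settings and was lost without any 1 library other than HFD+DSS replicate 1 and HFD replicate 1, with adjusted p up to 0.124 without HFD replicate 2. That of E2f2 held in 7 of 19 and was lost without any 1 library other than HFD+DSS replicate 1, CD+DSS replicate 2, HFD replicate 3 and CD replicate 3, with adjusted p up to 0.143 without HFD replicate 2.

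By direction, the other replication and mitosis genes lay with the members. For DSS under CD, 38 of 42 and 49 of 51 were below 0, with medians of -0.38 and -0.47 log2 (-0.22 and -0.23 without CD+DSS replicate 2), and CD+DSS lay wholly under CD in 14 and 17 of them, where 10.4% of all genes did so. For HFD with DSS, 41 of 42 and 49 of 51 were above 0, with medians of 0.27 and 0.27 (0.12 and 0.06 without CD+DSS replicate 2). These come from the same libraries and are no independent support. Inhibitors were divided, with 9 of 19 above 0 and a median of -0.12 for DSS under CD. In CD+DSS replicate 2 their sum was the highest of the 12 libraries at 584.9 FPKM, with Cdkn2b at 90.2 FPKM (23.9 to 44.0 in the other 11) and the antiproliferative gene Btg2 at 80.0 FPKM (21.9 to 49.6).

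The 2 genes of each list with the smallest p in each comparison of 2 groups were not called. Among them, Rfc4 shares 186 bases of exon with Eif4a2 on the opposite strand, which averaged 79.6 FPKM. Rbl2 shares 347 with Aktip, also on the opposite strand, at 6.85 FPKM, so both values are uncertain. For DSS under CD the log2 differences were -0.94 for the primase gene Prim1, -0.72 for the clamp loader gene Rfc4, -0.52 for Ckap2, -0.62 for the centromere gene Cenpi, 0.35 for the phosphatase gene Cdc25a, -0.87 for Ccne2, -0.82 for Wee1 and 0.54 for the pocket protein partner E2f4. For DSS under HFD they were 0.65 for E2f2, 0.47 for the dUTPase gene Dut, -0.50 for Ckap2, -0.54 for the spindle pole gene Aspm, -0.92 for Cdk6, 0.58 for Myc, -0.75 for Wee1 and -0.58 for Rbl2.

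For diet without DSS the largest of these was Myc, a growth-driving transcription factor, at -0.54 log2, and the others (Chaf1b, E2f1, Cdca5, Ckap2, Cdk2, Cdkn1c and Cdkn1b) lay between -0.34 and 0.28. For diet with DSS they were 0.72 for Prim1, 0.56 for Dut, 0.48 for the checkpoint ATPase gene Trip13, 0.39 for Mybl2, 0.36 for Skp2, 0.28 for Cdk4, -0.87 for Btg2 and 0.96 for the growth arrest gene Gas1. Prim1 had 5.32, 3.70 and 3.78 FPKM in HFD+DSS, 2.22, 1.36 and 3.17 FPKM in CD+DSS, 4.66, 5.79 and 5.34 FPKM in HFD, and 4.57, 6.50 and 4.39 FPKM in CD, so the CD+DSS libraries lay under all the others.

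**Figure D5:**
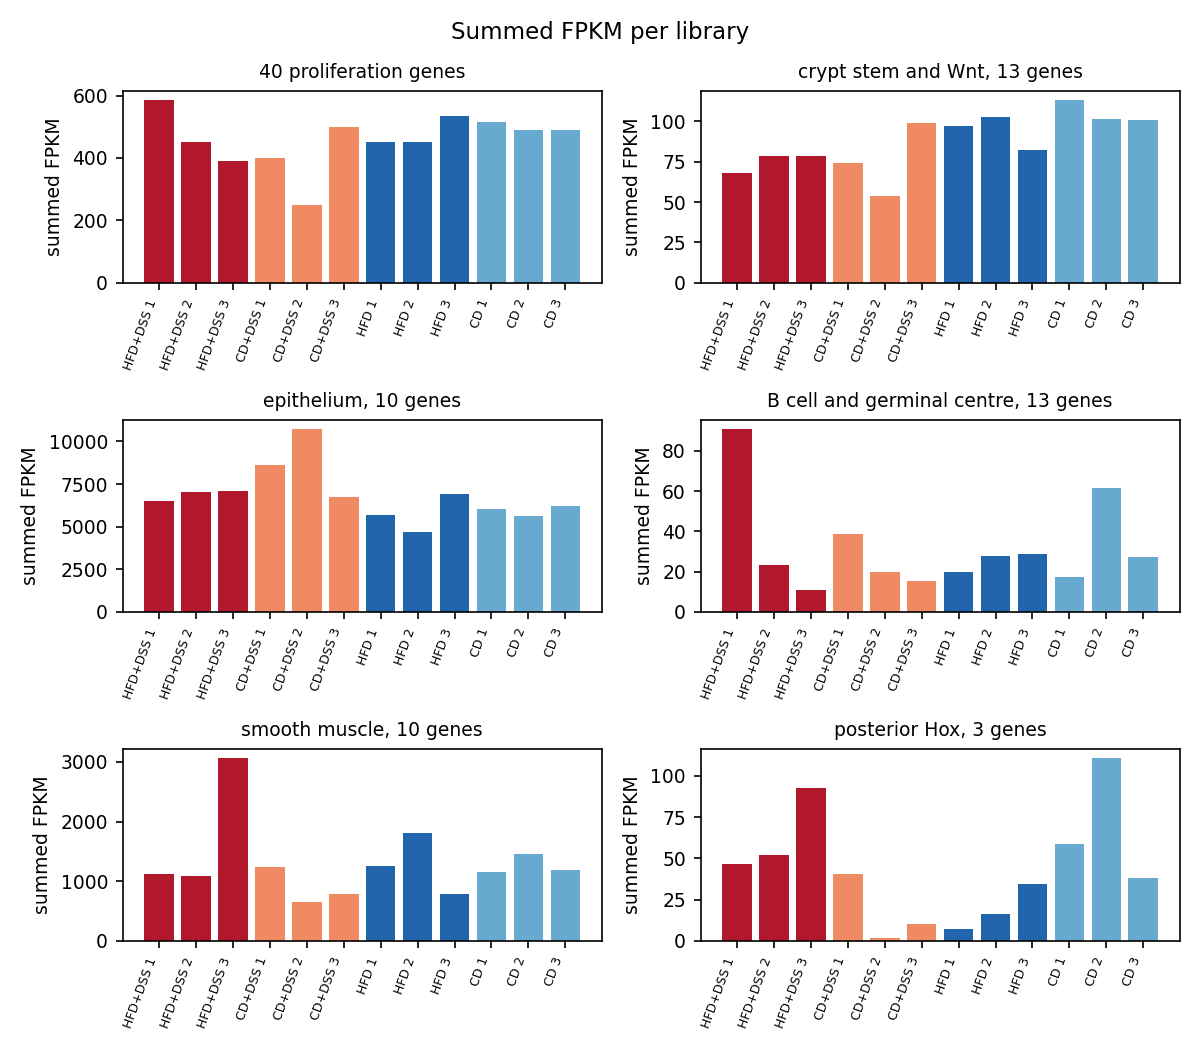
Bars of summed FPKM in each library for the 40 members and for marker lists of crypt stem cells and Wnt, epithelium, B cells and germinal centre, smooth muscle and the posterior Hox genes, with libraries by group. CD+DSS replicate 2 has both the lowest member sum (247.9 FPKM) and the lowest posterior Hox sum (1.62 FPKM), and HFD+DSS replicate 1 has the highest member sum (586.7 FPKM) and the highest B cell sum (91.0 FPKM). As a share of all FPKM in a library, the members were higher in CD+DSS replicate 3 and CD replicate 1 than in HFD+DSS replicate 1.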

How the data were processed

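The authors deposited 1 table of FPKM values, with a column for each of the 12 samples and 54532 genes by Ensembl identifier. Build mm10 is named in the submitters' processing notes, and their aligner, counting tool, annotation and use of strand are not given. Symbols (found for 54495 identifiers), exon lengths and positions were taken from GENCODE M21. FPKM steps gave whole fragments for 97.0% to 97.2% of values within 0.1. The scaling sizes behind them were about 13500000 to 19100000, which differed from the fragments on genes. The median ratio was 1.009 in every library, so the deposited FPKM were already scaled alike.

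Limma 3.58.1 in R 4.3.3, with a trend in eBayes, was run on log2(FPKM + 1), a scale that understates changes of low genes. It took all 12 libraries in 1 fit, over the 14179 genes that reached FPKM 1 in 3 or more libraries. Adjustment was Benjamini-Hochberg, with calls under 0.05. The fit was also run on simulated data with shifts larger than any member difference here, so that run cannot speak to differences of this size. Groups came from the treatment labels. Same-numbered samples did not deviate together and were treated as unpaired.

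Members, roles and lists were chosen with earlier results of these data known. Values in every library are given for the most abundant member of each role, the 3 members with the smallest p per comparison of 2 groups and for the interaction, and Mki67, Top2a, Pcna and Foxm1. Of other cycle genes, those called and the 2 with the smallest p per list and comparison are named. Bub1 and Kif20a, the library values of Btg2, Cdkn2b and Prim1, and single marker genes were picked after values were seen. Alternatives were a pseudocount of 0.1, no filter, the 2 groups alone, a replicate block, a posterior Hox covariate, no trend, and each library left out. Total scaling and voom on recovered fragments were added after seeing the data. Pseudogenes such as Pcna-ps2 (0.526 FPKM) and Ccnb2-ps (0.677 FPKM) may share fragments with their parent genes.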

Additional observations from a re-analysis of the deposited data

How the results depend on the processing

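Members called were 0 in all 7 comparisons under every setting run, except for DSS averaged over diets, where 1 was called without CD+DSS replicate 2 (Ccnd1) and 1 without CD replicate 3 (Nusap1), a range of 0 to 1. The members' median for the interaction was 0.11 with the posterior Hox covariate, and between 0.13 and 0.59 with 1 library left out. Left-out ranges of the median were -0.65 to -0.18 for DSS under CD, -0.08 to 0.10 for DSS under HFD, -0.14 to -0.01 for HFD without DSS, 0.09 to 0.53 for HFD with DSS, -0.30 to -0.06 for DSS averaged and 0.02 to 0.25 for HFD averaged. Total scaling moved the all-gene median to -0.05 for DSS under CD and -0.02 for DSS under HFD. The causes were not tested. Calls over all genes for DSS averaged over diets ran between 114 without HFD replicate 2 and 479 without CD replicate 3, and for DSS under HFD between 1 and 78, so single libraries set how many genes pass. The fragments behind a member's value in a library ran between 57, for Gins2, and 6551, for Mki67.

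Replicate numbers were taken as no pairing: of 18 same-numbered pairs 3 had a correlation of deviations over 0.1, with a range of -0.46 to 0.20, and 1 library correlated best with its own number. With a replicate block 0 members were called in each comparison, the medians did not move (-0.42 for DSS under CD and 0.34 for HFD with DSS), and calls over all genes were 162 for DSS averaged over diets, 2 for DSS under CD and 12 for DSS under HFD, against 389, 12 and 48. Of the 4 called cycle genes, Wee1 passed under the block (adjusted p = 0.0458), and E2f2, Ckap2 and Cdk6 had 0.0551, 0.0867 and 0.0577.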
